A study of Homo sapiens with 20 samples.

Results

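The 56 genes described here encode proteins that detect and mend DNA damage, among them the Fanconi anaemia genes, and were taken from a fixed list of symbols. All 56 were matched by current symbol to the Ensembl gene IDs of the deposited iCLIP peaks, and all had a peak in at least 1 of the 16 iCLIP libraries, out of 19362 gene IDs in all. iCLIP crosslinks a protein to RNA in living cells and sequences the bound fragments after immunoprecipitation. The 16 libraries came from TREX FLP-In 293T cells (HEK293T in the protocols, HEK293 in the RNA-seq titles), a human embryonic kidney line with a site for inserting tetracycline-inducible genes. For U2AF2 and for SRSF1 there were 3 control and 3 overexpression libraries each, and for hnRNPA1 there were 2 of each. Control cells had no overexpressed protein in their labels and had been selected with blasticidin and zeocin, while the overexpressing cells were a separate inducible line that expressed T7-tagged hnRNPA1 and was selected with hygromycin. Both kinds of cell were selected for 3 days and kept in tetracycline for 24 h, so line, selection drug and overexpression cannot be told apart. iCLIP was made from nuclear extracts. Polyadenylated RNA from whole cells was sequenced in 4 further samples, 2 of each kind.

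Cells repair DNA by several routes. The Fanconi anaemia core complex attaches ubiquitin to the FANCD2 and FANCI pair at crosslinks between DNA strands, and homologous recombination, guided by BRCA1 and BRCA2 among others, copies the lost sequence from an intact strand. ATM and ATR are kinases that signal damage, the Ku proteins and DNA-PKcs join broken ends, and nucleotide excision repair removes bulky lesions. The 3 precipitated proteins act on RNA processing: U2AF2 binds the pyrimidine tract at 3′ splice sites, SRSF1 is an SR protein that mostly promotes exon inclusion, and hnRNPA1 often counters SR proteins.

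Depth and makeup differed between conditions, and this touches every comparison of overexpression with control. Reads in peaks numbered 702563 to 1158060 in the U2AF2 control libraries and 2317615 to 3657197 in the U2AF2 overexpression libraries. For hnRNPA1 the order was the opposite, with 2973275 and 2508821 in control against 549365 and 575471 in overexpression, and SRSF1 libraries held 125082 to 329448. Repair genes with a peak numbered 46 to 53 in U2AF2 control and 52 to 56 in U2AF2 overexpression, 52 and 56 against 43 and 45 for hnRNPA1, and 26 to 39 in the SRSF1 libraries. The 3 U2AF2 overexpression libraries stood apart. Over the 1347 genes with a peak in all 16 libraries, their log2 values correlated with those of the U2AF2 control libraries at 0.27 to 0.36, a description across genes, and with each other at 0.90 to 0.98. They correlated with the hnRNPA1 control libraries at 0.44 to 0.50, more than with their own control. The U2AF2 control libraries correlated with each other at 0.92 to 0.94 and with the hnRNPA1 control libraries at 0.72 to 0.77. Because all libraries of 1 condition share this trait, no U2AF2 comparison can be made without them, and its part in the results was not tested. Whether the libraries labelled U2AF2 hold RNA bound by the same protein in both conditions was not tested either, and every U2AF2 change below is a difference between libraries so labelled. U2AF2 overexpression replicate 3 also listed peaks from 3 reads upwards and used a later set of gene IDs, whereas the other 15 libraries listed peaks from 6 reads. Of markers for the line, VIM and CDH2 had peaks for all 3 proteins, KRT8 and PAX2 had a peak in 1 to 2 libraries of a protein at most, and KRT18 and NEFM had none. Markers of blood, liver, fibroblast, muscle and islet cells (PTPRC, HBG1, ALB, AFP, COL1A1, MYH7 and INS) had no peak, and LYZ did. VIM (224 to 15.4) and CDH2 (280 to 34.9) had fewer mean normalised U2AF2 reads with overexpression and LYZ more (65.1 to 195), and for hnRNPA1 VIM (30.1 to 98.7) and CDH2 (326 to 528) had more; what part this has in the results was not tested.

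For each gene, reads were added up over its peaks and scaled by a size factor of the library, called normalised reads here, and changes are given as log2 differences ± SE after a pseudocount of 1. Testing needed a peak in each library of a protein, which 41 repair genes met for U2AF2, 40 for hnRNPA1 and 16 for SRSF1. These 41, 40 and 16 genes are therefore the ones with more reads. Normalised reads are not divided by gene length, so they compare conditions and not genes. A gene is said to have risen or fallen where limma's Benjamini-Hochberg adjusted p was under 0.05 over all genes tested for that protein. iCLIP reads grow with the amount of an RNA as well as with binding to it, and RNA levels were not analysed here, so the 2 cannot be told apart, nor can fewer cells be told apart from less RNA per cell.

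U2AF2 reads fell on 13 of the 41 tested repair genes and rose on 9, and 19 did not pass the test. Among all 6829 genes tested for U2AF2, 30.7% fell and 28.6% rose, so in this setting the repair genes' shares lie near the background. Among the tested repair genes, 12 lay lower and 11 higher in every overexpression library than in any control library, beside 33.3% and 34.3% of all genes. The median change was 0.13 over the repair genes and 0.02 over all genes. The split depended on the scale: divided by total reads in peaks, the median over all genes moved to 0.82, and 3 repair genes fell while 19 rose, beside 18.4% and 48.2% of all genes. With quantile normalization 8 fell and 14 rose, beside 26.2% and 30.5%. By number of peaks 1 fell and 11 rose, beside 13.2% and 8.62%. Group by group, the falls included the 3 parts of the MRE11-RAD50-NBN complex, and the rises included ATM and ATR, ERCC1 and ERCC4, and POLH.

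**Figure D1:**
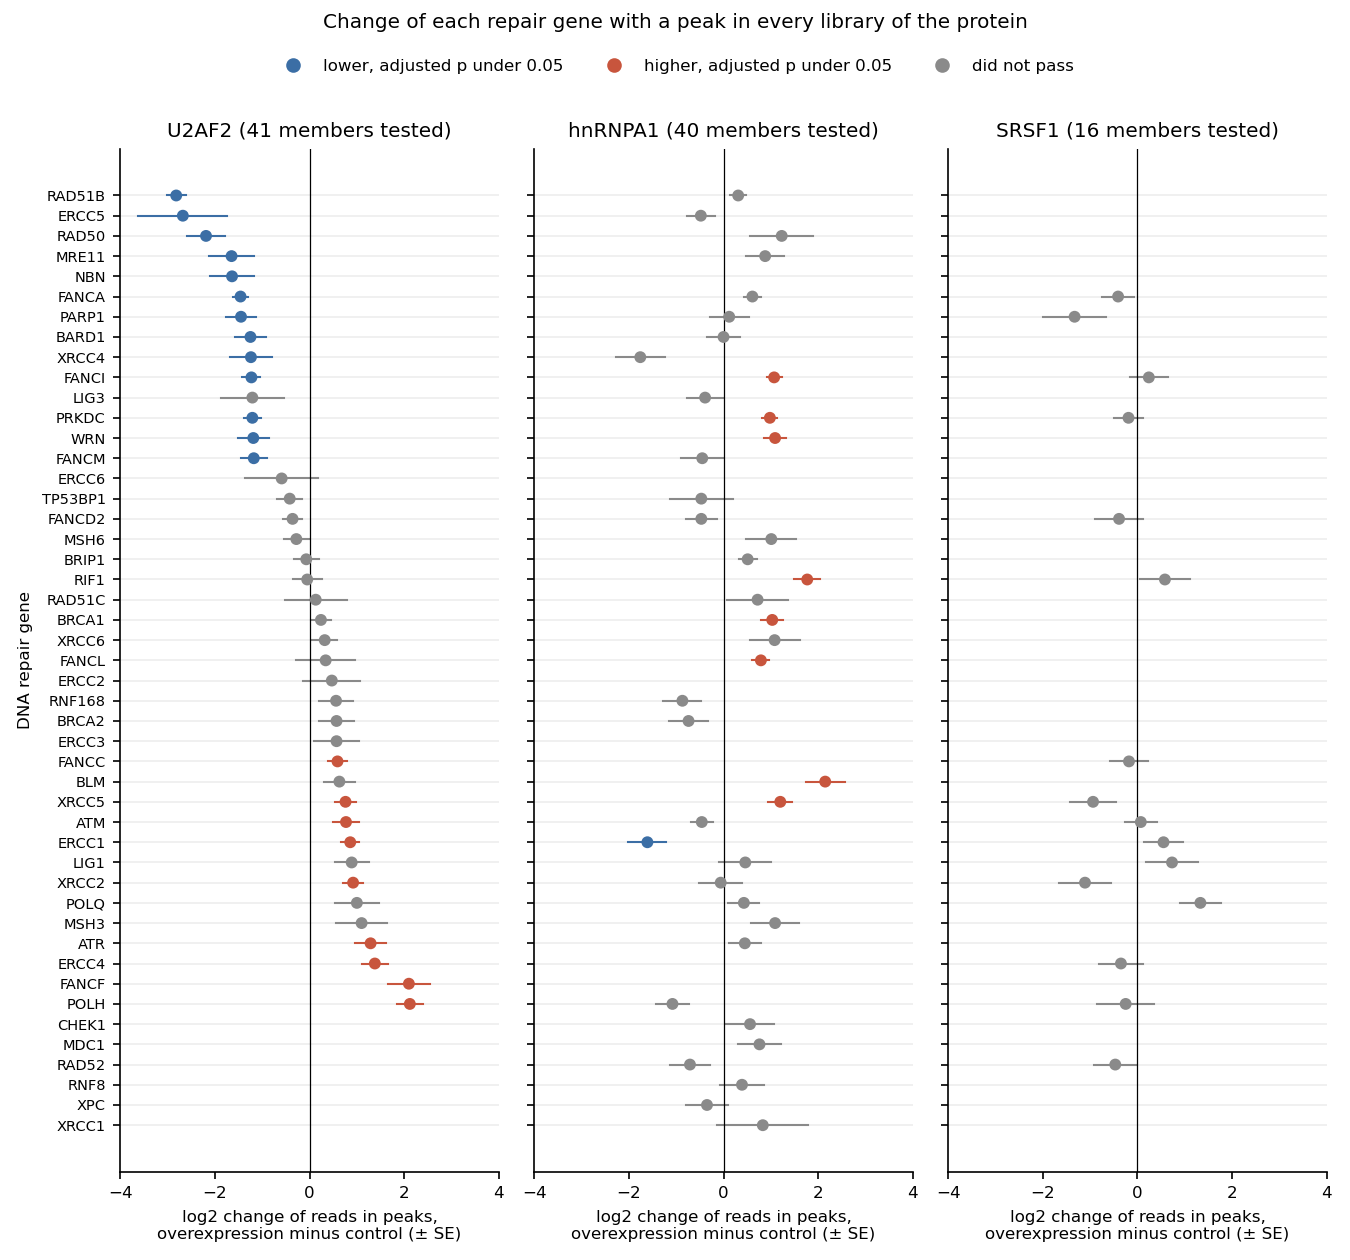
Log2 change (overexpression minus control, with SE bars) of reads in peaks for each repair gene with a peak in every library, in 1 panel per precipitated protein; colour marks genes past the threshold. U2AF2 changes run from -2.82 for RAD51B to 2.12 for POLH, 9 hnRNPA1 changes pass, and none of the 16 SRSF1 changes passes.

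In the Fanconi core complex and FANCM, which senses stalled forks and anchors that complex, 5 of 7 genes were tested. FANCA, a core subunit and the gene most often mutated in Fanconi anaemia, held 2081, 1665 and 1616 normalised U2AF2 reads in control and 626, 592 and 729 in overexpression. Every overexpression library lay below every control library, a fall of 1.46 ± 0.16 on the log2 scale (adjusted p = 0.000146). With quantile normalization the FANCA change was 0.08 and did not pass. FANCM fell by 1.18 ± 0.28, from 102 ± 19 to 44.7 ± 8.54 (SD, n = 3 each), a fall of 0.39 that did not pass on the total-reads scale. FANCF, a small adaptor subunit, rose from 17.3, 45.0 and 13.6 to 107, 97.0 and 91.0, a change of 2.10 ± 0.45 (adjusted p = 0.00419). Its control values rest on 6, 17 and 8 reads, close to the 6 reads that a peak needs. The 1 FANCF site with a peak in all 6 libraries, chr11:22645459-22645545 (minus strand), fell from 17.3, 15.9 and 13.6 to 5.13, 7.62 and 3.43 (-1.42 ± 0.35, adjusted p = 0.00258). The reads gained lay at chr11:22645253-22645438, with no peak, 29.1 and no peak in control and 102, 89.4 and 87.6 in overexpression, which was not tested. FANCC, another core subunit, rose by 0.59 ± 0.20 (adjusted p = 0.0343) from 111 ± 15.3 to 167 ± 3.66, and without control replicate 2 or 3 or any 1 overexpression library this call was lost (adjusted p 0.0521 to 0.116). FANCL, the ubiquitin ligase of the complex, was uneven in control (273 ± 263) and stood at 245 ± 33.9 in overexpression, which did not pass. FANCG had a peak in 2 of 3 control libraries and in all 3 overexpression libraries, and FANCE had a peak only in overexpression replicate 3, at 7.48 normalised reads. Both were left untested.

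In the Fanconi ID pair 1 of 2 genes passed for U2AF2. Both changes were negative, and the difference between the genes was not tested. FANCI gave 702, 760 and 1065 normalised reads in control and 366, 337 and 359 in overexpression, without overlap, and fell by 1.23 ± 0.19 (adjusted p = 0.000828). The FANCI fall was 0.42 on the total-reads scale and 0.41 after quantile normalization, and passed in neither. FANCD2 stood at 545 ± 132 and 416 ± 23, and its change of -0.36 ± 0.21 did not pass. FANCD2, like BRCA1, XRCC6, CHEK2 and PMS2, has near-identical copies in the genome, so its count is uncertain.

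Of 9 genes of homologous recombination, 7 were tested. RAD51B changed most: it held 1697, 1239 and 1182 normalised reads in control and 163, 188 and 228 in overexpression. Each control value exceeded each overexpression value several times over, and the fall was 2.82 ± 0.20 (adjusted p = 1.48e-05), which also passed on the total-reads scale (-2.01) and after quantile normalization (-2.06). BARD1, the partner of BRCA1, fell by 1.25 ± 0.33, from 202, 159 and 100 to 46.2, 78.2 and 64.9, and the call was lost without overexpression replicate 1 (-1.01, adjusted p = 0.0584). XRCC2 rose by 0.92 ± 0.22 (adjusted p = 0.0071), from 101 ± 17.4 to 189 ± 10.8. BRCA1 itself lay at 405, 490 and 275 in control and 449, 455 and 438 in overexpression, overlapping ranges with a change of 0.24 ± 0.22. BRIP1, the helicase that binds BRCA1, stood at 734 ± 268 and 663 ± 24.5 and did not pass. BRCA2 and RAD51C did not pass either. PALB2 had a peak in 2 of 3 control libraries and was not tested. RAD52 had a peak in 2 of 3 control libraries and in all 3 overexpression libraries (56.1 ± 49.8 against 135 ± 17.5), and was not tested. Of its U2AF2 reads, 20.5% lay in peaks also listed under another gene.

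Damage sensing and signalling had 8 of 13 genes tested, with 3 falls and 2 rises. The 3 falls were the complex that holds broken ends and activates ATM. RAD50 held 188, 590 and 334 normalised reads in control and 55.2, 73.7 and 93.2 in overexpression, without overlap, a fall of 2.19 ± 0.40 (adjusted p = 0.00214). MRE11, the nuclease, went from 145, 302 and 637 to 85.1, 96.0 and 107, a fall of 1.65 ± 0.47 (adjusted p = 0.0156). NBN, the subunit that recruits ATM, fell by 1.64 ± 0.47, from 72.3, 71.5 and 27.2 to 12.8, 13.7 and 23.1. RAD50 passed on the total-reads scale (-1.39), and MRE11 (-0.85) and NBN (-0.87) did not. The NBN call was also lost without overexpression replicate 1 (-1.46) or 2 (-1.49).

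ATM held 497, 630 and 277 normalised reads in control and 799, 785 and 689 in overexpression, and rose by 0.77 ± 0.28 (adjusted p = 0.0434). The ATM groups did not overlap, but the call was lost without control replicate 1 (0.82, adjusted p = 0.0695) or 3 (0.43, adjusted p = 0.063) and without any 1 overexpression library (adjusted p 0.0718 to 0.101). ATR, the kinase for stalled forks, rose by 1.29 ± 0.32 (adjusted p = 0.00836), from 101, 109 and 49.2 to 201, 211 and 191. ATRIP, its partner, had no peak in control and 5.13 and 5.30 normalised reads in overexpression replicates 1 and 3, below the 10.2 to 17.3 that 6 reads amount to in the control libraries. Of the 2 checkpoint kinases, CHEK1 gave 28.9, 34.4 and no peak in control and 114, 114 and 113 in overexpression, and CHEK2 gave 46.2, no peak and 18.7 against 83.8, 86.9 and 92.0. Neither was tested, since a control library lacked a peak. MDC1 and RNF8, which act on chromatin around breaks, likewise lacked a peak in control replicate 1 and were not tested. RIF1 and TP53BP1, which protect broken ends from trimming, and RNF168, which marks chromatin around breaks, did not pass.

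In end joining, 4 of 5 genes were tested. PRKDC, the gene of DNA-PKcs, held the most U2AF2 reads of the repair genes in control, at 1448, 1903 and 2272 normalised reads, and stood at 827, 757 and 812 in overexpression. It fell by 1.21 ± 0.18 (adjusted p = 0.000771), yet quantile normalization turned the PRKDC change to 0.50, which did not pass. XRCC4, the scaffold of the end-joining ligase, fell by 1.24 ± 0.44 (adjusted p = 0.0395) although its groups touched, with 110, 39.7 and 88.3 in control and 23.9, 26.9 and 43.0 in overexpression. The XRCC4 call was lost without control replicate 1 (-0.98) or 3 (-1.11) and without overexpression replicate 1 (-1.04) or 2 (-1.11). XRCC5, the larger Ku subunit, rose by 0.76 ± 0.22 (adjusted p = 0.0173), from 101, 151 and 144 to 226, 237 and 202, and lost the call without overexpression replicate 1 (0.77) or 2 (0.75). XRCC6, the other Ku subunit, stood at 75.4 ± 17.4 and 93.1 ± 4.32 and did not pass. LIG4, the ligase, had a peak in 1 library of each condition.

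PARP1, the main sensor of single-strand breaks, fell by 1.45 ± 0.32 (adjusted p = 0.00494), from 104, 127 and 166 to 33.4, 50.3 and 61.1, without overlap. On the total-reads scale the PARP1 fall was 0.66 and did not pass. LIG1, the replicative ligase, stood higher in every overexpression library (48.7, 95.5 and 109 against 37.6, 45.0 and 45.8) and missed the threshold (adjusted p = 0.0604), and LIG3 did not pass. PARP2 gave 43.4, no peak and 44.1 in control and 1.25 in overexpression replicate 3 alone, and XRCC1, a scaffold of single-strand break repair, lacked a peak in control replicate 1, so neither was tested. In mismatch repair, MSH6, which takes part in mismatch recognition, lay at 92.5, 97.9 and 66.2 in control and 80.8, 61.5 and 66.4 in overexpression, overlapping ranges, and neither MSH6 nor MSH3 passed. PMS2 had a peak in 1 control library and was not tested.

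Nucleotide excision repair had 6 of 8 genes tested, with 1 fall and 2 rises. The rises were ERCC1 and ERCC4, which together form the nuclease that cuts 5′ of a lesion. ERCC4 held 80.9, 156 and 131 normalised reads in control and 352, 336 and 252 in overexpression, and rose by 1.38 ± 0.28 (adjusted p = 0.00324). ERCC1 rose by 0.86 ± 0.19 (adjusted p = 0.00503), from 165, 130 and 161 to 302, 276 and 251. ERCC5, the nuclease for the 3′ side, held 396, 651 and 387 in control and 181, 174 and 10.9 in overexpression, where replicate 3 was the low one. Its fall of 2.68 ± 0.94 (adjusted p = 0.0363) was lost without control replicate 1 (-2.83), 2 (-2.49) or 3 (-2.82). Of the U2AF2 reads of ERCC5, 33.9% lay in peaks also listed under another gene. In overexpression replicate 3, a read-through ID that joins BIVM to ERCC5 and was listed in that library alone held 494 reads, against 35 under ERCC5. With those reads added, a choice made after the values were seen, ERCC5 stood at 181, 174 and 165, and the fall became 1.42 ± 0.23 (adjusted p = 0.0011). XPA, which binds damaged DNA, had a peak in 1 control library and in all 3 overexpression libraries and was not tested, and XPC, the lesion sensor, lacked a peak in control replicate 2. The helicase genes ERCC2 and ERCC3 and the transcription-coupled repair gene ERCC6 did not pass.

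POLH, the polymerase that copies past ultraviolet damage, rose most: 89.6, 106 and 177 normalised reads in control against 559, 569 and 443 in overexpression, a change of 2.12 ± 0.27 (adjusted p = 0.000311). POLH also passed on the total-reads scale (2.92) and after quantile normalization (2.75). POLQ, the polymerase of microhomology end joining, did not pass (1.00 ± 0.47, adjusted p = 0.0976). WRN, a RecQ helicase, fell by 1.19 ± 0.33 (adjusted p = 0.0143), from 254, 455 and 684 to 184, 209 and 171, and its fall of 0.39 on the total-reads scale did not pass. BLM, the RecQ helicase that resolves recombination intermediates, stood at 154 ± 79.9 and 221 ± 22.6 and did not pass.

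**Figure D2:**
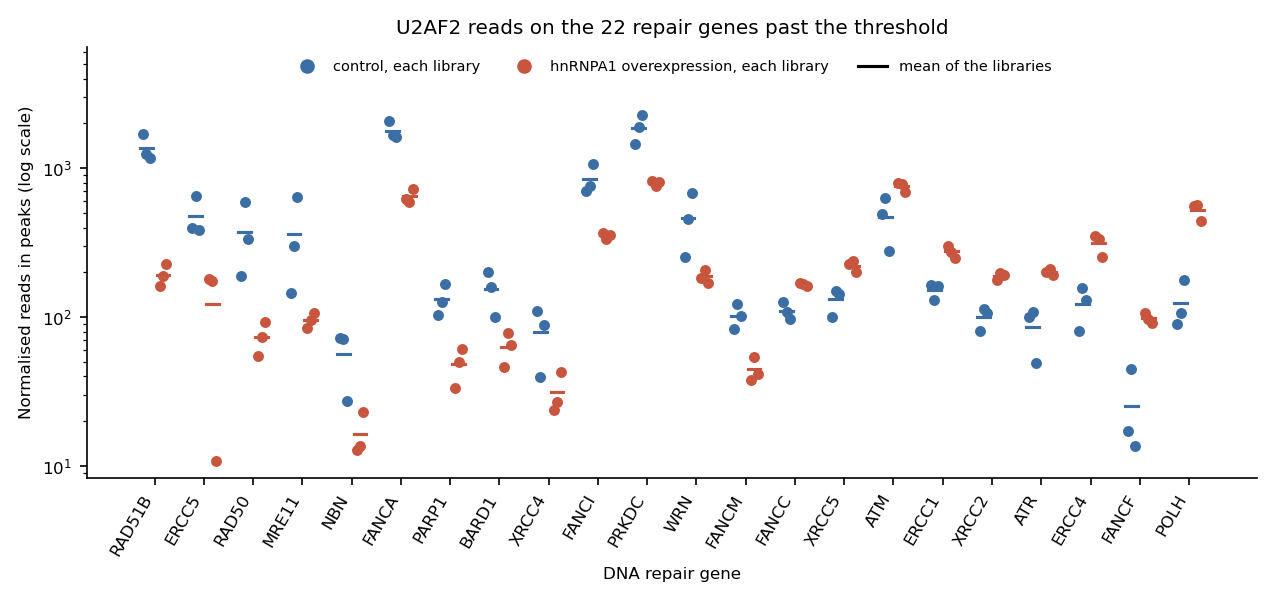
Normalised U2AF2 reads in peaks (log axis) in each control and each overexpression library for the 22 repair genes past the threshold; horizontal lines are group means. The genes are ordered by change, and of these 22 XRCC4 is the one whose groups overlap.

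Because a deeper library lists weaker peaks, peaks were also limited to those that would reach 6 reads in the shallowest library of the protein. This left 18 repair genes for U2AF2, of which 9 fell and 2 rose, beside 28.3% and 23.2% of the 3110 genes tested. POLH (1.05) and ERCC4 (1.19) still rose. PRKDC (-3.90), FANCA (-3.34) and FANCI (-3.29) fell, and BRCA1 (-1.25), BRIP1 (-2.33), RIF1 (-1.97), FANCD2 (-1.36) and ERCC3 (-1.08) fell as well. XRCC5 turned to a fall of 2.32, and ATR (-0.64) and XRCC2 (-0.17) turned negative without passing.

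A site is the union of overlapping peaks of 1 protein, and 24 sites in repair genes had a U2AF2 peak in all 6 libraries, of 2915 U2AF2 sites in all. Of the 24, 10 fell and 10 rose, beside 33.6% and 42.8% of the 4837 sites tested over all genes. The required peak in the shallow control libraries bears on this balance, since a site can fall to values that no tested site can rise from. In repair genes 114 sites had a peak in 2 or more control libraries alone and 946 in 2 or more overexpression libraries alone. At matched peak depth 0 of 6 sites fell and 4 rose, beside 7.76% and 41.7%. The part of this in the site positions below was not tested. Without overexpression replicate 2 the falling sites numbered 16 of 30, beside 36% of all sites. Without overexpression replicate 1 or 2 the rising sites numbered 5, beside 31.9% and 35.4%. Coordinates are hg19, 1-based, and exons, introns and UTRs were not annotated here. The steepest falls were inside the genes. A BRCA1 site at chr17:41276059-41276250 (minus strand) held 75.2, 71.5 and 66.2 normalised reads in control and 3.85, 3.05 and 1.25 in overexpression, a fall of 4.35 ± 0.34 (adjusted p = 1.28e-07). An MRE11 site at chr11:94206576-94207127 (minus strand) went from 113, 217 and 163 to 8.12, 8.64 and 8.73, a fall of 4.07 ± 0.28 (adjusted p = 3.58e-08). A FANCI site at chr15:89806711-89807188 (plus strand) went from 211, 225 and 255 to 5.99, 27.4 and 15.0, a fall of 3.97 ± 0.39. In all 3 the control and overexpression libraries were far apart, also for BRCA1, whose reads over the whole gene did not pass. A FANCD2 site at chr3:10106127-10106490 (plus strand) fell from 57.7 ± 8.47 to 7.26 ± 1.63 as well.

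Sites that rose lay mostly near the 3′ end. An ATM site at chr11:108236475-108236778 (plus strand) held 136, 146 and 93.4 normalised reads in control and 368, 351 and 315 in overexpression, a change of 1.48 ± 0.22 (adjusted p = 5.29e-05). In the same gene a site at chr11:108166065-108166130 fell by 1.87 ± 0.32, from 26.0, 21.2 and 25.5 to 5.99, 7.62 and 4.37. So ATM gained U2AF2 reads at its 3′ end and lost them at an internal site. A POLH site at chr6:43583754-43584033 (plus strand) rose by 1.5 ± 0.26, from 31.8, 58.2 and 45.8 to 136, 141 and 104. Of 2 ERCC1 sites that rose, the one at chr19:45913138-45913290 (minus strand) went from 34.7, 29.1 and 35.7 to 100, 96.0 and 87.0. An ERCC4 site at chr16:14026635-14026933 (plus strand) rose by 1.56 ± 0.22, from 80.9, 87.4 and 66.2 to 263, 252 and 187. It lay 40.1% along the stretch of the gene that holds peaks, 17313 nucleotides from the 3′ end of that stretch. The rising FANCC site named next lay at 89.8%, 21447 nucleotides from that end. FANCC held both kinds within a short distance, a rise of 0.89 ± 0.34 at chr9:97884306-97884444 and a fall of 0.89 ± 0.28 at chr9:97885632-97885778.

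Positions were measured along the stretch of each gene that holds peaks in any library, from 0% at its 5′ end to 100% at its 3′ end; this measure was chosen after the values were seen. The 10 repair sites that rose had a median position of 97.3%, and 8 of them lay in the last 10%. The 10 that fell had a median of 29.6%, and 0 lay in the last 10%. The 4 sites that did not pass had a median of 96.2%, with 3 in the last 10%, so a place near the 3′ end was not particular to sites that rose. Over all genes the sites that rose had a median of 83.5% with 43.5% in the last 10%, those that fell had 61.6% and 20.6%, and those that did not pass 71.1% and 35.7%. The repair sites thus differed in the same direction as sites over all genes.

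**Figure D3:**
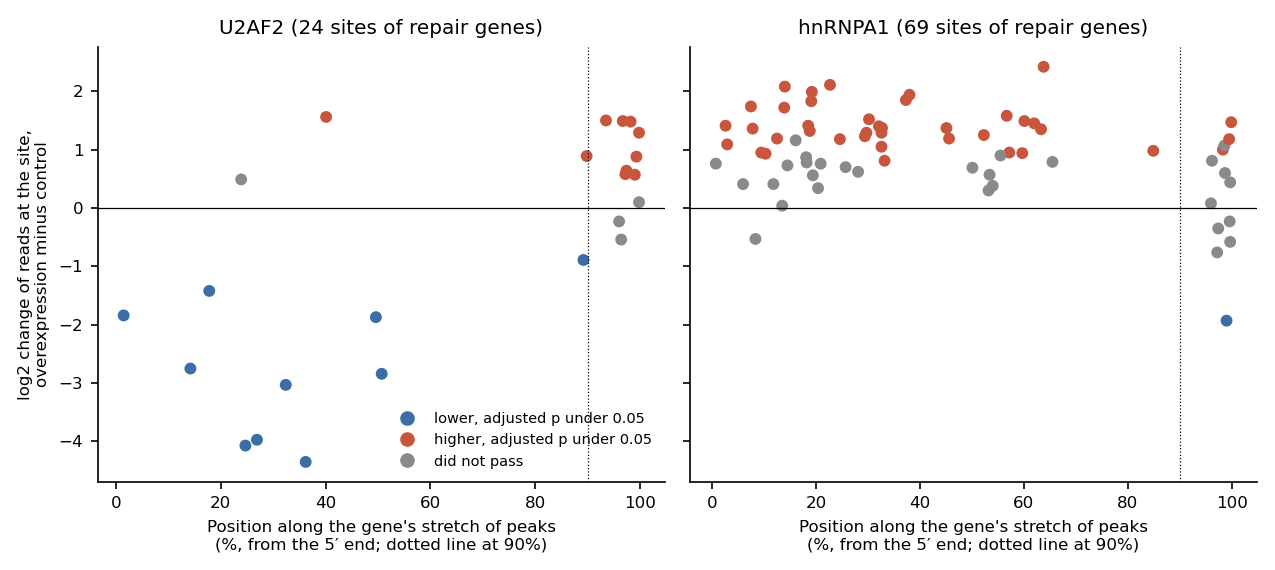
Log2 change (overexpression minus control) of each tested site in a repair gene against its position along the gene's stretch of peaks (%, 5′ to 3′), for U2AF2 (24 sites) and hnRNPA1 (69 sites); colour marks sites past the threshold. For U2AF2, 8 of the 10 rising sites lie beyond the dotted line at 90% and 0 of the 10 falling sites do.

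The share of a library's own reads in the last 10% of these stretches needs no scaling between libraries. It still depends on depth, since deeper libraries list weaker peaks and can set the ends of the stretches. Stretches drawn without the deeper libraries were not tested. For U2AF2 on the repair genes the share was 7.89%, 9.39% and 8.95% in control and 28.5%, 27.9% and 25.4% in overexpression. The difference was 18.5 percentage points, with no overlap. Over all genes the same shares were 15.6% to 15.9% in control and 27.2% to 28.4% in overexpression. Repair genes thus began below all genes and ended near them; whether that gap between repair genes and others differed by condition was not tested. The difference kept its direction with the last 5% (15.1 points) or 20% (22.3 points), without the 5 repair genes with most U2AF2 reads (12.2 points), and at matched peak depth (8.62% ± 0.633 against 47.0% ± 1.47). Among single genes, the share was higher in every overexpression library than in any control library for 15 of the 41 repair genes with reads in all 6 libraries and lower for 2, beside 20.5% and 12.6% of the 6829 genes. Of the 15, BRCA2, BRIP1, FANCC, MRE11, NBN and WRN had a share of 0 in all 3 control libraries. Any reads listed there in all 3 overexpression libraries then count as higher. BRCA2 had 1 peak of 6 to 8 reads in each control library. ATM went from 37.4% to 57.1% in control to 73.1% to 74.2% in overexpression, FANCD2 from 8.49% to 13.2% to 37.4% to 41.2%, and BRCA1 from 7.03% to 10.5% to 25.1% to 30.6%. XRCC2 went the other way, from 28.6% to 34.9% in control to 13.1% to 15.0%. SRSF1 shares overlapped between conditions (19.1% to 26.0% against 21.4% to 24.9%). hnRNPA1 shares on the repair genes were lower with overexpression, 15.8% and 17.8% in control against 11.5% and 8.76%, and over all genes they were 14.2% and 14.5% against 9.8% and 9.97%.

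**Figure D4:**
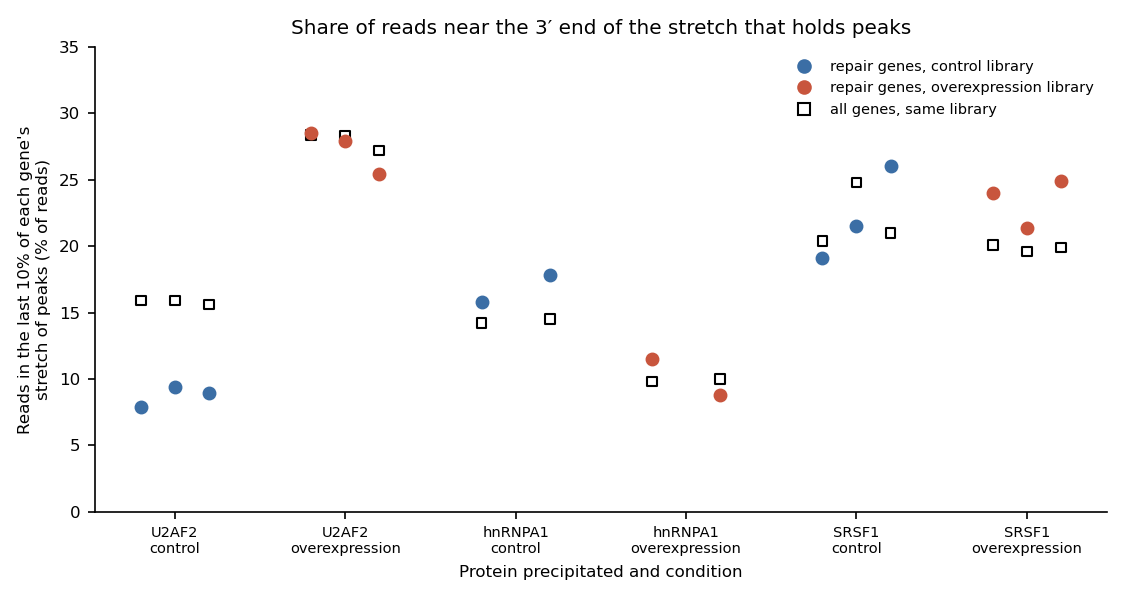
Share of each library's reads (%) that lie in the last 10% of the genes' stretches of peaks, by precipitated protein and condition; filled circles are repair genes and open squares all genes of the same library. U2AF2 repair-gene shares sit at 7.89% to 9.39% in control and 25.4% to 28.5% in overexpression.

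hnRNPA1's own reads rose on 8 of 40 tested repair genes and fell on 1. Over the 5738 genes tested for hnRNPA1, 9.5% rose and 8.33% fell, and the median change was 0.46 over the repair genes and 0.01 over all genes. With 2 libraries a condition the spread rests on few values. In both overexpression libraries 18 repair genes lay higher and 11 lower than in both control libraries, beside 32.7% and 33% of all genes. On the total-reads scale 8 rose and 3 fell, beside 7.23% and 11.5% of all genes. At matched peak depth 8 of 19 rose and 1 fell, beside 19% and 17% of 2936 genes. The required peak in the shallow overexpression libraries bears on this balance, since genes that lacked a peak there were not tested. With a peak in 50% of libraries 10 of 52 rose and 6 fell, beside 4.31% and 34.1% of all genes. With that filter the median change was -0.03 over the repair genes and -1.62 over all genes. Leaving out any 1 library leaves 1 in its condition, and the number of calls depended on the library left out. The median change then ran from 0.32 to 0.68 over the repair genes and from -0.03 to 0.03 over all genes.

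Both RecQ helicases rose. BLM held 43.4 and 26.2 normalised hnRNPA1 reads in control and 172 and 136 in overexpression, a rise of 2.15 ± 0.41 (adjusted p = 0.0213). Its call was lost without control replicate 2 (1.76, adjusted p = 0.0586). WRN went from 151 and 165 to 331 and 343, a rise of 1.09 ± 0.23 (adjusted p = 0.0251) that was lost without control replicate 1 (1.00, adjusted p = 0.0819). With only peaks of p at most 0.001 the WRN change was -0.35 and did not pass. RIF1 rose by 1.77 ± 0.27 (adjusted p = 0.0149), from 146 and 102 to 461 and 381, and was the second largest rise.

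In end joining, XRCC5 rose by 1.20 ± 0.25 (adjusted p = 0.0249), from 354 and 230 to 619 and 695, and PRKDC by 0.98 ± 0.16 (adjusted p = 0.0159), from 688 and 730 to 1557 and 1255. Among Fanconi genes, FANCI rose by 1.07 ± 0.16 (adjusted p = 0.0149), with replicates close together at 371 and 367 in control and 775 and 776 in overexpression. FANCL rose by 0.79 ± 0.18 (adjusted p = 0.029), from 546 and 442 to 874 and 829, and lost the call without control replicate 2 (0.61) or overexpression replicate 1 (0.83). BRCA1 rose by 1.03 ± 0.23 (adjusted p = 0.0296), from 147 and 167 to 335 and 308, and lost the call without control replicate 1 (0.91) or 2 (1.09). FANCA stood higher in both overexpression libraries (567 and 517 against 366 and 345) and missed the threshold (adjusted p = 0.0585). RAD51B, the repair gene with most hnRNPA1 reads in control, stood at 1308 and 986 in control and 1398 and 1418 in overexpression and did not pass.

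ERCC1 was the one tested repair gene on which hnRNPA1 reads fell. It went from 106 and 99.4 normalised reads to 28.3 and 37.9, a change of -1.61 ± 0.40 (adjusted p = 0.0357). Its overexpression values rest on 12 and 17 reads, and the call was lost without control replicate 1 (-1.59) or 2 (-1.67). ERCC4 had 198 and 174 reads in control, or 77.4 and 78.6 normalised, and no peak in overexpression. FANCF (60 and 70 reads) and PALB2 (40 and 60 reads), the bridge between BRCA1 and BRCA2, likewise had control peaks and none in overexpression. FANCG, FANCE, ATRIP and PMS2 had 6 to 20 reads in control replicate 1 alone, and PARP2 6 and 7 reads in control. FANCC, ERCC6 and NBN had a peak in 1 overexpression library and were not tested. In mean normalised reads FANCC went from 114 to 14.2, ERCC6 from 58.8 to 7.8 and NBN from 25.9 to 11.1. ERCC2 and ERCC3, also with a peak in 1 overexpression library, had higher means in overexpression. A peak of 6 reads amounts to 14.2 and 13.4 normalised reads in the overexpression libraries, and a gene's control value is a sum over its peaks. The largest single control peak of ERCC4 was worth 27 and 25.8 normalised reads, above that limit. For FANCF (8.6 and 11.3), PALB2 (7.43 and 7.23), FANCG, FANCE, ATRIP, PARP2 and PMS2 every control peak lay below it, so a loss was not detectable at this depth. POLH, which rose for U2AF2, stood at 123 and 151 in control and 70.9 and 57.9 in overexpression for hnRNPA1 and did not pass (adjusted p = 0.0659). The 31 repair genes that did not pass ranged from -1.76 for XRCC4 to 1.23 for RAD50, and 16 were not tested.

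**Figure D5:**
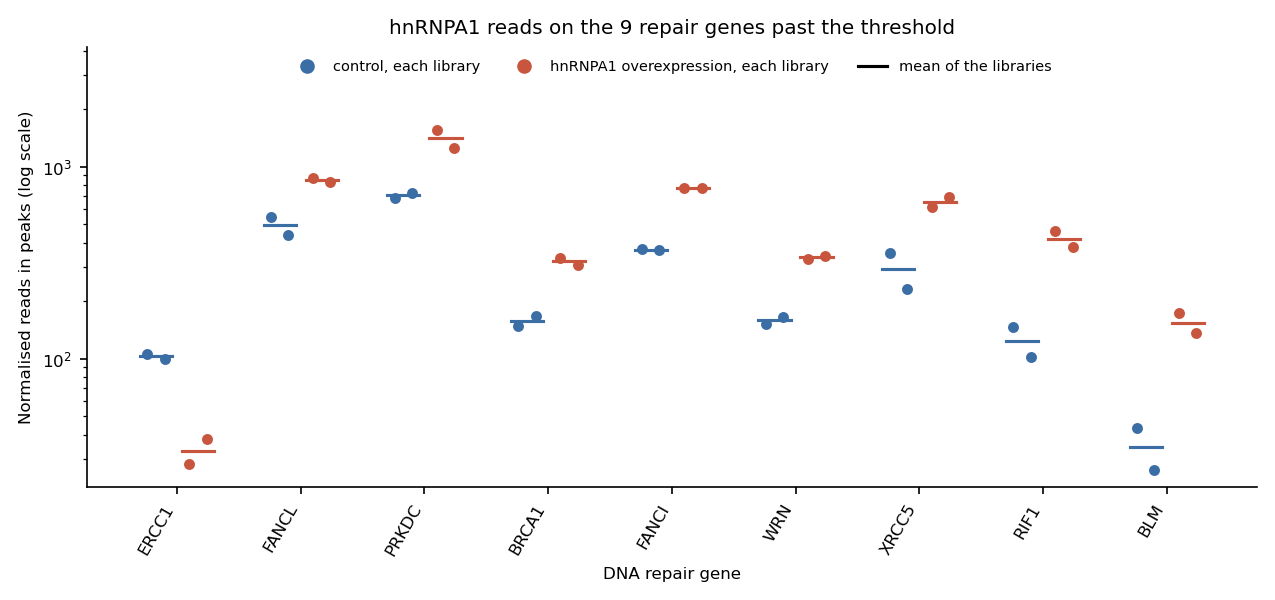
Normalised hnRNPA1 reads in peaks (log axis) in each control and each overexpression library for the 9 repair genes past the threshold; horizontal lines are group means. ERCC1 is lower and the other 8 genes are higher in both overexpression libraries, without overlap.

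Of 69 repair-gene sites with an hnRNPA1 peak in all 4 libraries, 39 rose and 1 fell, beside 56.2% and 2.75% of the 9684 sites over all genes. The requirement of a peak in the shallow overexpression libraries bears on this balance: 222 sites had a peak in both control libraries alone and 42 in both overexpression libraries alone. An XRCC5 site at chr2:217035805-217035874 rose most, from 7.43 and 5.87 to 35.4 and 44.6 (2.42 ± 0.35, adjusted p = 0.00102). A FANCD2 site at chr3:10085175-10085359 rose from 6.65 and 12.2 to 42.5 and 42.3. The site that fell was at the 3′ end of ATM, chr11:108237723-108237864, from 64.1 and 64.2 to 16.5 and 15.6 (-1.93 ± 0.29, adjusted p = 0.00123). A U2AF2 site covers the same place, chr11:108237721-108237876, and there U2AF2 reads rose from 113, 90 and 64.5 to 138, 137 and 114 (0.57 ± 0.24, adjusted p = 0.0438). The 2 proteins thus moved in opposite directions at that place, but not along the whole 3′ end of ATM. Another hnRNPA1 site there, chr11:108236799-108236921, rose by 1.00, close to the U2AF2 site at chr11:108236475-108236778 that rose by 1.48. These sites were singled out after their values were seen, and the difference between proteins was not tested.

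Of the 8 genes on which hnRNPA1 reads rose, U2AF2 reads fell on FANCI, PRKDC and WRN, rose on XRCC5 and did not pass on BLM, RIF1, BRCA1 and FANCL. At matched peak depth U2AF2 reads fell on FANCI (-3.29), PRKDC (-3.90), XRCC5 (-2.32), RIF1 (-1.97) and BRCA1 (-1.25). FANCL (-1.75) did not pass at that depth, and BLM and WRN were not tested. ERCC1, where hnRNPA1 reads fell, was among the U2AF2 rises. Over all genes tested for U2AF2, 30.7% fell and 28.6% rose, and at matched peak depth 28.3% and 23.2%. The shares among all genes on which hnRNPA1 reads rose were not computed. Whether hnRNPA1 and U2AF2 changes were linked was not tested.

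SRSF1 reads passed the test on 0 of 16 repair genes with limma, where 1 had an unadjusted p under 0.05 and where, over the 1845 genes tested, 2.6% fell and 4.17% rose. Changes ranged from -1.33 for PARP1 to 1.33 for POLQ. In every overexpression library 2 repair genes, POLQ and ERCC1, lay higher than in any control library and 0 lay lower, beside 14.4% and 14.3% of all genes. The median change was -0.22 over the repair genes and -0.02 over all genes. The gene with the unadjusted p under 0.05 was POLQ, at 39.3, 21.6 and 15.1 normalised reads in control and 59.2, 80.0 and 47.4 in overexpression, without overlap (1.33 ± 0.44, adjusted p = 0.0945). PRKDC stood at 271 ± 93.9 and 231 ± 38.3. FANCA gave 77.7, 120 and 90.8 in control and 66.9, 63.4 and 85.0 in overexpression, and ATM 66.6 ± 10.7 and 69.6 ± 8.3, both overlapping. PARP1 had 1 high library, with 60.8, 388 and 47.6 in control and 39.5, 33.9 and 51.2 in overexpression, and so had XRCC6, with 33.7, 233 and 14.1 against no peak, 8.32 and 5.27. In both, control replicate 2 was the high one, and without it the PARP1 change was -0.42 in place of -1.33. RAD51C and XPA had SRSF1 peaks in 2 control libraries and none in overexpression, and MRE11 and XRCC1 the reverse, in 1 and 2 overexpression libraries, at no more than 31 reads. No SRSF1 peak was listed for FANCE, NBN, ATRIP, CHEK2, XRCC4, LIG4, PARP2, PMS2 or ERCC6. At matched peak depth 1 of 7 repair genes fell, and 0 rose, beside 2.88% and 6.94% of 764 genes. None of 9 SRSF1 sites in repair genes passed, with 3 at an unadjusted p under 0.05, beside 4.49% falling and 11.7% rising of 1403 sites.

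The U2AF2 and SRSF1 responses were compared directly in 1 fit over 12 libraries, which 15 repair genes entered. The U2AF2 change lay below the SRSF1 change for 3 and above it for 4, beside 28.4% and 22.3% of the 1656 genes tested. FANCI (-1.23 for U2AF2 against 0.24 for SRSF1, a difference of -1.46 ± 0.47), FANCA (-1.46 against -0.41, difference -1.05 ± 0.34) and PRKDC (-1.21 against -0.19, difference -1.02 ± 0.37) lay below. POLH (difference 2.37 ± 0.72), XRCC2 (2.03 ± 0.61), ERCC4 (1.73 ± 0.54) and XRCC5 (1.70 ± 0.57) lay above. The adjusted p ranged from 0.0141 for XRCC2 to 0.0351 for PRKDC. Without U2AF2 control replicate 1, XRCC5 (1.49), ERCC4 (1.43) and FANCA (-0.97) no longer passed, nor did FANCA without U2AF2 overexpression replicate 1 (-1) or 2 (-0.95), FANCI without U2AF2 control replicate 3 (-1.29), or XRCC5 (1.41) and ERCC4 (1.48) without SRSF1 overexpression replicate 1. PRKDC lost its call without any 1 of 9 libraries (-0.85 to -1.04). On the total-reads scale 0 lay below and 7 above, since the median over all genes moved from 0.07 to 1.05. PARP1, which fell for U2AF2, had a difference of -0.13 ± 0.84 between the proteins and did not pass.

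U2AF2 peaks in repair genes were also set against the hnRNPA1 peaks of control cells. A share of 34.1%, 27.5% and 28.2% of the U2AF2 control peaks overlapped one by at least 1 nucleotide, and 19.1%, 20.9% and 16.1% of the overexpression peaks did, a difference of -11.2 points without overlap between groups (exact two-sided permutation test, p = 0.1, the smallest that 3 against 3 libraries can give). Over all genes the mean shares were 43.6% and 28.3%. At matched peak depth the order turned, with a mean of 30.3% in control and 79.0% in overexpression, where 65 to 107 peaks per overexpression library were left, so the direction depended on the peak minimum. Over all genes matched depth turned it as well, to 48.8% and 84.9%.

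In the authors' deposited table of skipped exons, 0 of 251 events overlapped the stretch of peaks of a repair gene. The table lists selected events only, so exon inclusion in the other repair genes was not analysed here.

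A second list of 134 further repair genes with peaks, such as clamp loaders, translesion polymerases and mismatch factors, had 78 genes tested for U2AF2, of which 28 fell and 13 rose, beside the 30.7% and 28.6% over all genes. The balance turned with the scale: 13 fell and 25 rose on total reads, 23 and 16 after quantile normalization, and 9 and 9 by number of peaks. Over all genes the shares were 18.4% and 48.2%, 26.2% and 30.5%, and 13.2% and 8.62%, in the same order. POLD3, a replicative polymerase subunit (-4.49 ± 0.48), SFPQ, an RNA-binding protein that also acts in break repair (-3.98 ± 0.18), and RFC3, a clamp loader subunit (-3.87 ± 0.14), fell most. SLX4, a nuclease scaffold (2.41 ± 0.37), POLK, a translesion polymerase (2.22 ± 0.41), and RBBP8, which starts end resection (2.16 ± 0.44), rose most. For hnRNPA1, 12 of 65 rose and 2 fell, beside 9.5% and 8.33% over all genes. REV1 (1.84 ± 0.29) and RBBP8 (1.79 ± 0.33) led the rises, and POLN (-2.28 ± 0.55) and POLD3 (-1.72 ± 0.38) were the falls. For SRSF1, RFC3 fell (-1.62 ± 0.42, adjusted p = 0.0422) and was the one of 21 to pass. No gene of this list fell for SRSF1 with the replicate block, after quantile normalization, by number of peaks, with peaks under more than 1 gene left out, with the filter at 50% of libraries, at matched peak depth, with peaks of p at most 0.001, or without control replicate 1 or 3 or overexpression replicate 2 or 3, so this call depended on the setting.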

How the data were processed

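iCLIP of hnRNPA1, U2AF2 and SRSF1 (16 libraries) and polyadenylated RNA-seq (4) were used. Per the file headers, iCLIP alignment by the authors used TopHat and hg19 with repeats filtered, and CLIPper gave a separate peak list for every library. Each deposited peak carries a p-value from CLIPper, a gene ID and a read number in its name. The deposited exon table gives inclusion as a fraction per library, differences of inclusion, and a Bayes factor, which is a ratio. Tool versions are not given in the sources used here.

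Groups came from the sample titles, and nothing says whether libraries of a group came from separate cultures, so p-values measure only the spread between these libraries. Without their version suffix, 17814 of 19362 gene IDs (92.0%) had a symbol. Peak reads were added up by gene and scaled by median-of-ratios size factors (from genes listed in all libraries of a protein), as log2 with a pseudocount of 1. Genes and sites listed in all libraries of a protein were fitted with limma 3.58.1 in R 4.3.3 (lmFit, eBayes with a trend), with condition as the only term, two-sided, Benjamini-Hochberg adjusted, threshold 0.05. The interaction of protein and condition was fitted over 12 libraries. Overlaps used bedtools 2.31.1. Peak calls stop at 6 reads (3 in 1 library), which sets the lowest value each depth can show; duplicate removal is not given in the sources used here, so read counts need not be molecules. The fits were tested on simulated data.

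The members and lists were chosen with earlier results of these data known. Values in every library are given for up to 12 genes past the threshold with the largest change in each comparison, the gene with most U2AF2 reads in each role group, every gene past the threshold for SRSF1 or hnRNPA1, and up to 4 genes with no peak in 1 condition; the rest by counts, ranges and single values. Sites were named by size of change, which was chosen after the values were seen. Alternatives were other size factors, filters, peak minima, pseudocounts, peak numbers, a replicate block and leaving out single libraries. Sequences at peaks were not analysed here.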

Additional observations from a re-analysis of the deposited data

Results flagged for a closer look

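In 7 repair genes the U2AF2 and SRSF1 responses to overexpression differed by the test of the difference itself: FANCA (-1.05), FANCI (-1.46) and PRKDC (-1.02) lay lower for U2AF2, and XRCC5 (1.70), ERCC4 (1.73), XRCC2 (2.03) and POLH (2.37) lay higher. These are 7 of 15 genes tested, beside 28.4% below and 22.3% above over all genes, so the repair genes' share lies near the background. The U2AF2 overexpression libraries stand apart from all other libraries, and the part of this in the 7 differences was not tested.

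A read-through ID, BIVM-ERCC5, held 494 reads in U2AF2 overexpression replicate 3 and was not listed in the other libraries; it lies outside the 56 genes.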

How the results depend on the processing

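The U2AF2 split depended on the scale. On total reads 3 repair genes fell and 19 rose, beside 18.4% and 48.2% of all genes tested. After quantile normalization 8 fell and 14 rose, beside 26.2% and 30.5%. By number of peaks 1 fell and 11 rose, beside 13.2% and 8.62%. At matched peak depth 9 of 18 fell and 2 rose, beside 28.3% and 23.2%. Leaving out single libraries gave 10 to 14 falls and 6 to 10 rises, beside 25.8% to 30.4% and 19.6% to 29.1% of all genes. For SRSF1, matched depth gave 1 fall among 7 repair genes, beside 2.88% of all genes. For hnRNPA1, 3 fell on total reads, beside 11.5% of all genes. After quantile normalization 0 fell (7.89%), and by number of peaks 0 (2.34%). With a peak in 50% of libraries 6 of 52 fell and 10 rose, beside 34.1% and 4.31%. Rises numbered 4 by number of peaks (4.36%) and 3 of 24 with peaks of p at most 0.001 (11.4%). Leaving out 1 library leaves 1 in its condition, and the number of calls depended on the library left out. In the comparison of U2AF2 with SRSF1, 0 lay below and 7 above on total reads, beside 18.5% and 44.4% of all genes. By number of peaks 0 lay below and 1 above (12.4% and 5.25%). At matched depth, with 1 repair gene tested, both numbered 0 (24.2% and 15.5%). With the 50% filter 2 of 50 lay below and 0 above (10.4% and 2.99%). Without single libraries 1 to 4 lay below and 2 to 4 above (25.2% to 28.3% and 16.5% to 26.6%). With the 50% filter, sites that fell and rose numbered 57 and 465 of 621 for U2AF2, beside 11.5% and 69.3% of all sites tested. For SRSF1 they numbered 4 and 5 of 76, beside 6.04% and 11.5%. For hnRNPA1 they numbered 219 and 60 of 538, beside 47.2% and 8.35%. At matched depth sites that fell and rose numbered 0 and 4 of 6 for U2AF2, beside 7.76% and 41.7%. For SRSF1 they numbered 1 and 0 of 3, beside 4.72% and 18.7%, and for hnRNPA1 1 and 12 of 30, beside 3.84% and 47.4%. SRSF1 sites that fell numbered 2 of 9 on total reads, beside 7.27% of all sites. Without single libraries, U2AF2 sites numbered 11 to 16 falling and 5 to 13 rising, beside 31.3% to 37.5% and 31.9% to 42.8% of all sites. SRSF1 sites numbered 0 to 1 falling, beside 1.52% to 3.88%. For hnRNPA1 sites, with 1 library left in a condition, the median change was 0.97 to 1.06 in repair genes and 0.91 to 1.06 over all sites. The overlap with hnRNPA1 control peaks turned to 48.8 points at matched depth and ranged from -12.4 to -9.12 without single libraries.

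Single genes changed sign as follows. By number of peaks, U2AF2 changes were 0.37 for MRE11, 0.35 for FANCI, 0.26 for PRKDC, 0.44 for MSH6, 0.42 for WRN, -0.31 for FANCC and -0.24 for ERCC1, the SRSF1 change of PARP1 was 0.07, and the U2AF2 minus SRSF1 differences were 0.34 for FANCI and 0.19 for PRKDC. Quantile normalization gave 0.08 for FANCA and 0.50 for PRKDC, and total reads 0.51 for MSH6. Matched depth gave -0.64 for ATR, -0.17 for XRCC2 and -2.32 for XRCC5. Peaks of p at most 0.001 gave -0.35 for WRN in hnRNPA1. The cause was not tested.

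Same-numbered control and overexpression libraries did not deviate together (r across genes from -0.0135 to 0.022). This does not show whether they were prepared as pairs. For hnRNPA1, with 2 libraries a condition, both same-numbered r values are equal by construction. With the number as a replicate block, 13 repair genes fell and 8 rose for U2AF2, beside 30.3% and 26.5% of all genes. FANCC lost its call there (adjusted p = 0.0712 with limma). For hnRNPA1 1 fell and 8 rose (8.68% and 10.3%), and for SRSF1 0 passed (2.33% and 3.69%). Between U2AF2 and SRSF1 3 lay below and 4 above (27.5% and 20.3%), and 1 SRSF1 site fell (3.92% of all sites). Depth limits these values: a peak of 6 reads is worth 10.2 to 17.3 normalised reads in U2AF2 control and 1.87 to 3.05 in U2AF2 overexpression libraries, so weaker peaks could be listed in the latter. Quantile normalization, the p limit and a pseudocount of 10 were not run for sites or for the comparison of the proteins.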
